A study of Mus musculus with 32 samples.

Results

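The 30 Rik long noncoding RNAs with the most listed contacts to chromatin were examined in mouse embryonic stem cells and in a neural line derived from oligodendrocyte progenitors. "Rik" symbols are provisional names given to genes found by cDNA sequencing at RIKEN. Members were all RNA genes that the deposited files class as long noncoding and whose symbol ends in Rik, provided that they had at least 300 distinct interactions summed over the 3 mESC_1FA libraries or over the 3 mOPC_1FA libraries. By this rule 30 of 17784 listed transcripts, and of 685 listed Rik long noncoding RNAs, were kept. The minimum was reached by 22 in mESCs and by 16 in mOPCs, and 8 of these reached it in both. An interaction here is a listed pair of an RNA tag and a DNA tag with its own pair of positions, since RADICL-seq ligates RNA to nearby DNA through a bridge adapter inside crosslinked nuclei and sequences both ends.

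The 15 libraries fell into 6 groups, and replicates within a group were cell batches of differing passage, per the study's methods. mESC_1FA (n = 3) and mESC_2FA (n = 3) were untreated R08 mESCs crosslinked with 1% and 2% formaldehyde (FA). mESC_ActD4 (n = 2) were the same cells given 5 µg/ml actinomycin D (ActD), an inhibitor of transcription, for 4 h and then crosslinked with 1% FA. In mESC_NPM (n = 2), also crosslinked with 1% FA, proteins were digested after crosslinking and before the RNA was ligated. This was to keep contacts that do not depend on protein (non-protein-mediated, NPM). mOPC_1FA (n = 3) and mOPC_NPM (n = 2) were the same protocols, both with 1% FA, in Oli-neu cells, an immortalised line used as a model of mOPCs. All groups were cultured cells with no genetic change between treatments, and each cell type was 1 line, so cell type and line cannot be told apart.

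Long noncoding RNAs are transcribed and spliced much like mRNAs but encode no known protein. Many stay in the nucleus, where the nascent RNA lies over its own gene and neighbouring chromatin, and some act there on nearby genes. Others act mainly through their transcription, or carry small RNAs such as miRNAs in their introns and exons, and for most Rik genes no function is known. Among the 30, 1810026B05Rik is the RNA that RefSeq names Chaserr, which represses the adjacent chromatin remodeller gene Chd2, and 3110039I08Rik is named Mir100hg, the host of miR-100, let-7a-2 and miR-125b.

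The 30 genes spanned 3.74 to 426 kb (median 91.6 kb) in the GENCODE annotation of mm10. Of these, 12 were intergenic, 11 overlapped a coding gene on the opposite strand, 4 began within 5 kb of a coding gene read in the other direction, and 3 overlapped a coding gene on the same strand. For 5 members some tags lay in another gene of the same strand, coding or noncoding, so that their origin was uncertain. The annotation placed 94.7% of the tags of 6030443J06Rik also in another gene of its strand, among them the coding gene Lhfpl3, 100% of those of B930086L07Rik, which lies in Fgfr2 and Ctbp2, and 10.3% of those of 1810026B05Rik, which meets Chd2. For 3110039I08Rik the share was 95.2%, in overlapping annotations with Gm symbols, and for 2610037D02Rik 3.95%.

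There are 5 members that hold annotated miRNA hairpins, so the mature sequences of the best known were read from RefSeq (GRCm38.p6) to show what these long transcripts contain, with the seed (bases 2 to 8) in capitals. The first 3 lie in 3110039I08Rik, the 2 miR-29 sequences in A330023F24Rik, and the last in 5330434G04Rik.
miR-100-5p: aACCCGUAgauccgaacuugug
let-7a-2-3p: cUGUACAGccuccuagcuuuc
miR-125b-5p: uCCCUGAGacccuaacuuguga
miR-29b-3p: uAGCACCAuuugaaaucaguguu
miR-29c-3p: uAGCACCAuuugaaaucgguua
miR-325-3p: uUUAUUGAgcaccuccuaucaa
The miR-29 pair shared the seed AGCACCA, and the other seeds differed from it and from each other. Tags within 50 bp of a hairpin numbered 0 to 8 for each miRNA gene over all libraries, so the contacts described below came from the rest of these transcripts. The hairpins Gm44363 in 6030443J06Rik and Mir6368 in 2610307P16Rik were the others.

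A few single positions gave many interactions, and the 27 bases around the most used position of 4 members are given 5′ to 3′ on the RNA strand (mm10), with the listed position in capitals. A result below returns to the fourth.
5031425E22Rik: ccatactgtgcgcTgtaaacaaagcag
2610035D17Rik: gcggcctcactctTgtcctggctgcag
2610037D02Rik: gacaaaatctcagCgtggagtggggaa
5430416N02Rik: tgattattgaggaActaatgaggatat
The first is at chr5:23389772-23389798 on the minus strand, in an intron, and gave 498 interactions in the 1FA libraries, 497 of them in mOPC_1FA, which was 1.43% of that RNA's interactions and reached 178 DNA bins of 25 kb. The second (chr11:113171009-113171035, minus, intron) gave 158 interactions in 105 bins. The third (chr15:96258829-96258855, minus, intron) gave 96, all in mOPC_1FA. The fourth (chr5:100426883-100426909, minus, intron) gave 45, or 10.2% of all 442 interactions of 5430416N02Rik, in 6 of 6 libraries and in only 2 bins. No other member had more than 5.46% of its interactions from 1 position.

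The libraries listed 2441619 to 2832717 distinct interactions in mESC_1FA, 2035499 to 2515347 in mESC_2FA, 251802 to 418781 in mESC_ActD4, 434610 to 608994 in mESC_NPM, 1998951 to 2210765 in mOPC_1FA and 1190366 to 1272653 in mOPC_NPM. Since the files hold only pairs that passed a significance test, with the same adjusted p for a pair in each replicate's file, these totals are not sequencing depth and an RNA listed at 0 is not shown to be absent. The pluripotency and oligodendrocyte progenitor markers followed the labels. All 10 pluripotency markers were listed in mESC_1FA, at a summed 2281 to 2824 interactions per 1000000 listed, against 1.81 to 3.00 in mOPC_1FA, where 8 of 10 including Pou5f1 and Nanog were at 0. Of 9 oligodendrocyte progenitor markers, 8 were listed in mOPC_1FA (2074 to 2489 per 1000000) and Nkx2-2 was at 0, against 11.2 to 41.4 in mESC_1FA. The 5 neuron markers summed to 1253 to 1475 per 1000000 in mOPC_1FA and 54.0 to 69.2 in mESC_1FA, with 2 listed in mOPC_1FA and Rbfox3, Snap25 and Tubb3 at 0 there. Of 6 endoderm and trophoblast markers, Gata4 and Gata6 were listed in mESC_1FA at a summed 48.0 to 187 per 1000000, with Sox17, Foxa2, Cdx2 and Eomes at 0, and none in mOPC_1FA. The 4 astrocyte markers, with Gfap and Aqp4 at 0 in both groups, summed to 91.8 to 136 in mESC_1FA and 37.5 to 52.5 in mOPC_1FA, the 5 of mature oligodendrocytes to 18 to 22.1 and 71.2 to 102, and the 4 of fibroblasts to 2.12 to 4.12 and 0. The part of these other genes in the results on the Rik RNAs was not tested, and in bulk libraries fewer cells of a type and less RNA per cell cannot be told apart.

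Together, the 30 RNAs took 0.260% ± 0.00681 (SD, n = 3) of all listed interactions in mESC_1FA and 1.5% ± 0.0781 (SD, n = 3) in mOPC_1FA. As a share of the interactions of all long noncoding RNAs this was 6.49% ± 0.802 and 8.85% ± 0.938. Much of the larger share in mOPCs was that of a pair of RNAs. In mOPC_1FA, 2610035D17Rik and 5031425E22Rik made up 74.8% ± 1.15 (SD, n = 3) of the 30 RNAs' interactions, against 11.4% ± 3.19 in mESC_1FA. The other 28 took 0.230% ± 0.00290 of all listed interactions in mESC_1FA and 0.378% ± 0.0172 in mOPC_1FA. These shares describe values that chose the members and were not tested.

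**Figure D1:**
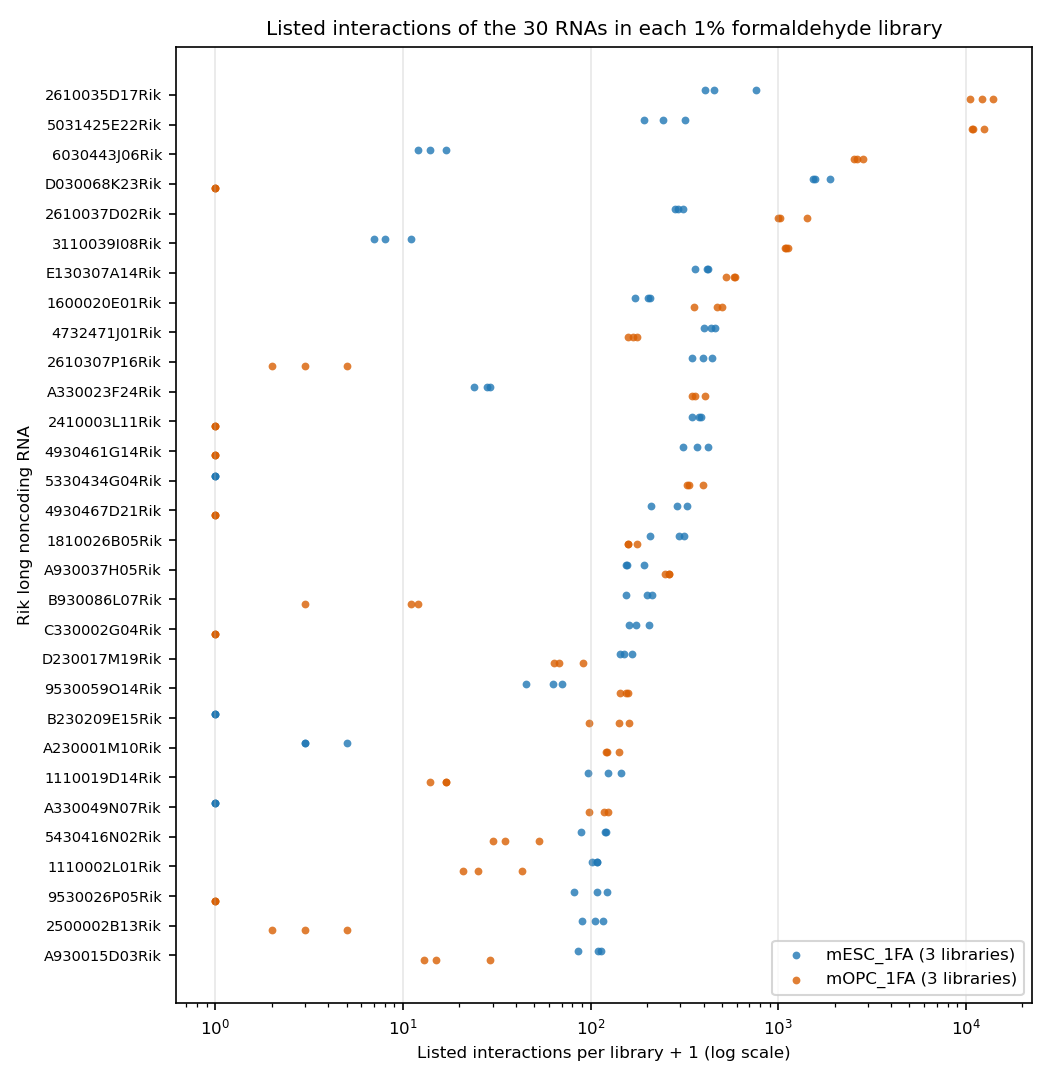
Listed interactions of the 30 Rik long noncoding RNAs in each 1% formaldehyde library. Each row is 1 RNA and each point 1 library (x axis: interactions + 1, log scale; mESC_1FA and mOPC_1FA, n = 3 each); 2610035D17Rik lies between 405 and 763 in mESC_1FA and between 10546 and 13966 in mOPC_1FA, while D030068K23Rik lies at 1539 to 1877 and at 0.

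The most captured member was 2610035D17Rik, a 158-kb intergenic RNA gene on the minus strand at chr11:113043895-113201838, 43.0 kb from the zinc transporter gene Slc39a11. It had 763, 405 and 455 interactions in mESC_1FA and 12163, 13966 and 10546 in mOPC_1FA. All mOPC_1FA libraries were far above all mESC_1FA libraries, by 5.39 ± 0.24 on the log2 scale (SE, 41.9-fold, scaled for library composition). The coding gene beside it went the other way: Slc39a11 had 1695, 1359 and 1519 interactions in mESC_1FA and 181, 209 and 197 in mOPC_1FA. That difference for Slc39a11, which the rule did not use, was -2.11 ± 0.12 (limma, adjusted p = 1.03e-06), with no overlap between the groups.

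The next was 5031425E22Rik, a lincRNA of 52.0 kb at chr5:23382308-23434269, minus strand, whose start lies 172 bp from that of Kmt2e, a gene for a chromatin-associated methyltransferase-family protein, read in the opposite direction. It had 316, 192 and 243 interactions in mESC_1FA against 10864, 10742 and 12500 in mOPC_1FA. The groups lay 6.37 ± 0.17 log2 units apart (SE, 82.9-fold). Kmt2e was higher in the same direction, with 262, 207 and 314 against 3828, 3403 and 3230 interactions and a log2 difference of 4.60 ± 0.12 (limma, adjusted p = 7.98e-09). Transcripts of the whole first 45 Mb of chromosome 5, which holds this RNA and 6030443J06Rik, were listed more in mOPC_1FA, with a median log2 difference of 2.11 over 207 tested against -0.36 over the 538 in the rest of that chromosome. Contacts of transcripts from other chromosomes were also listed there more often: 8.33 to 8.59% of the trans contacts of Malat1, a nuclear long noncoding RNA that meets much of the genome, fell in those 45 Mb in mOPC_1FA against 0.821 to 0.957% in mESC_1FA. The part of this region in the values of both RNAs was not tested.

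6030443J06Rik (chr5:22550432-22807850, plus strand) had 11, 13 and 16 interactions in mESC_1FA and 2829, 2637 and 2543 in mOPC_1FA. Its difference of 8.44 ± 0.13 (SE, 347-fold) was the largest among the 21 members listed in both groups. It shares its strand with Lhfpl3, listed at 0 in all mESC_1FA libraries and at 12916, 13200 and 12965 in mOPC_1FA, so its count cannot be separated from that gene's. 3110039I08Rik (Mir100hg, chr9:41327077-41716994, plus strand) had 6, 10 and 7 interactions in mESC_1FA and 1101, 1131 and 1085 in mOPC_1FA, a difference of 7.93 ± 0.21 (SE, 244-fold). A330023F24Rik, the RNA over the miR-29 hairpins and opposite to the complement regulator gene Cd46, had 27, 23 and 28 against 407, 357 and 347, or 25-fold more. Both groups were apart for each of these RNAs.

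In all mESC_1FA libraries 3 members were listed at 0: 5330434G04Rik on chromosome X, which holds the miR-325 hairpin (396, 324 and 333 in mOPC_1FA), B230209E15Rik (160, 140 and 97) and A330049N07Rik near the protocadherin gene Pcdh15 (117, 123 and 97). A230001M10Rik was close to this with 2, 4 and 2 interactions in mESC_1FA and 140, 122 and 120 in mOPC_1FA. No fold is given for RNAs listed at 0 in a group.

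Of the RNAs captured mainly in mESCs, D030068K23Rik led. It is a 199-kb lincRNA on the plus strand at chr8:109075222-109273811, 114 kb from Zfhx3, which encodes a homeodomain transcription factor. It had 1575, 1539 and 1877 interactions in mESC_1FA and was listed at 0 in every mOPC_1FA library, whereas Zfhx3 itself differed by -0.18 ± 0.11 (limma, adjusted p = 0.177). That value rests on the scaling for composition, since per 1000000 listed interactions Zfhx3 had 684, 597 and 567 in mESC_1FA and 384, 393 and 362 in mOPC_1FA, with no overlap. Another 5 members were at 0 in mOPC_1FA, namely 2410003L11Rik (346 to 385 in mESC_1FA), 4930461G14Rik (310 to 421), 4930467D21Rik (210 to 326), C330002G04Rik (159 to 203) and 9530026P05Rik (81 to 122). 2610307P16Rik, beside the transcription factor gene Sox4, had 348, 398 and 442 interactions in mESC_1FA and 4, 1 and 2 in mOPC_1FA, which were 91.6-fold fewer. 2500002B13Rik (23.9-fold) and B930086L07Rik (16-fold) were next in this direction.

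Other members were listed in both cell types at closer counts. 2610037D02Rik (chr15:96134819-96284495, minus strand), which starts 3023 bp from Arid2, a gene for a subunit of the PBAF chromatin remodelling complex, had 292, 279 and 308 interactions in mESC_1FA and 993, 1022 and 1422 in mOPC_1FA (6.92-fold). E130307A14Rik, antisense to the signalling adaptor gene Traf3ip2, had 421, 359 and 417 against 583, 523 and 590 (2.55-fold), and 1600020E01Rik, antisense to the RNA-binding protein gene Pcbp1, 201, 172 and 206 against 501, 473 and 356 (4.08-fold). 4732471J01Rik, antisense to the lipase gene Lipe, had 461, 400 and 439 in mESC_1FA and 175, 157 and 167 in mOPC_1FA, a log2 difference of -0.53 after scaling. The Chaserr transcript 1810026B05Rik (313, 207 and 295 against 175, 157 and 158) and D230017M19Rik (149, 142 and 165 against 67, 63 and 90) had log2 differences of 0.13 and -0.22. The positive sign of the former rests on the scaling for composition. Its mean per 1000000 listed interactions was 102 in mESC_1FA and 77.6 in mOPC_1FA.

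Over the 21 members listed in both groups the median log2 difference was 1.35, with 12 positive and 9 negative and a range of -6.52 to 8.44, beside a median of -0.06 over the 8949 of all transcripts listed in both. With the fitted values of the 9 members at 0 in a group, the median of the 30 was -0.04 (15 positive and 15 negative), beside -0.22 over all 10256 transcripts tested. In all, 26 of the 30 differed by more than 2-fold, 14 upwards and 12 downwards, and the groups did not overlap for 27. Of all 10256 transcripts tested, 2653 were over 2-fold higher and 3459 over 2-fold lower, and the groups did not overlap for 8218. As 77.5% of all transcripts tested differed at an adjusted p under 0.05 (34.4% higher and 43.0% lower in mOPC_1FA), and as the members were chosen on these counts, nothing is read from this. Scaling by library totals alone moved the median of all transcripts by -0.51 log2 units. At the minimum of 300, the last members kept were 2500002B13Rik (310 in mESC_1FA and 7 in mOPC_1FA), 9530026P05Rik (310 and 0) and A930015D03Rik (307 and 54), and the first left out were E230016M11Rik (123 and 299), C330024D21Rik (290 and 0) and 2310002F09Rik (285 and 0).

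The same cell types were compared in the NPM libraries, which the rule did not use. Of the 30 RNAs, 26 passed the test, 13 higher and 13 lower in mOPC_NPM, beside a background of 51.2% of all 11043 transcripts tested (30.3% higher and 20.9% lower; limma, Benjamini-Hochberg adjusted p under 0.05). A minimum reached in either cell type favours RNAs that differ between them, so the count is not evidence about Rik RNAs as a class. Of the 26, 13 reached 10 interactions in both libraries of only 1 NPM group and entered the test through it alone, which favours, but with libraries of unequal size does not fix, a higher value there. Of the 17 members that reached it in both groups, 13 passed, 7 higher and 6 lower, beside 42.1% of the 6524 such transcripts. Over the 23 listed in both groups the median log2 difference was -0.33 and the range -6.34 to 7.50, beside a median of 0.04 over all transcripts listed in both. With each RNA and 25-kb bin pair counted once per library, 5 were called. Most members met fewer than 10 bins in either NPM group, so they fell below the minimum and could not be tested.

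**Figure D2:**
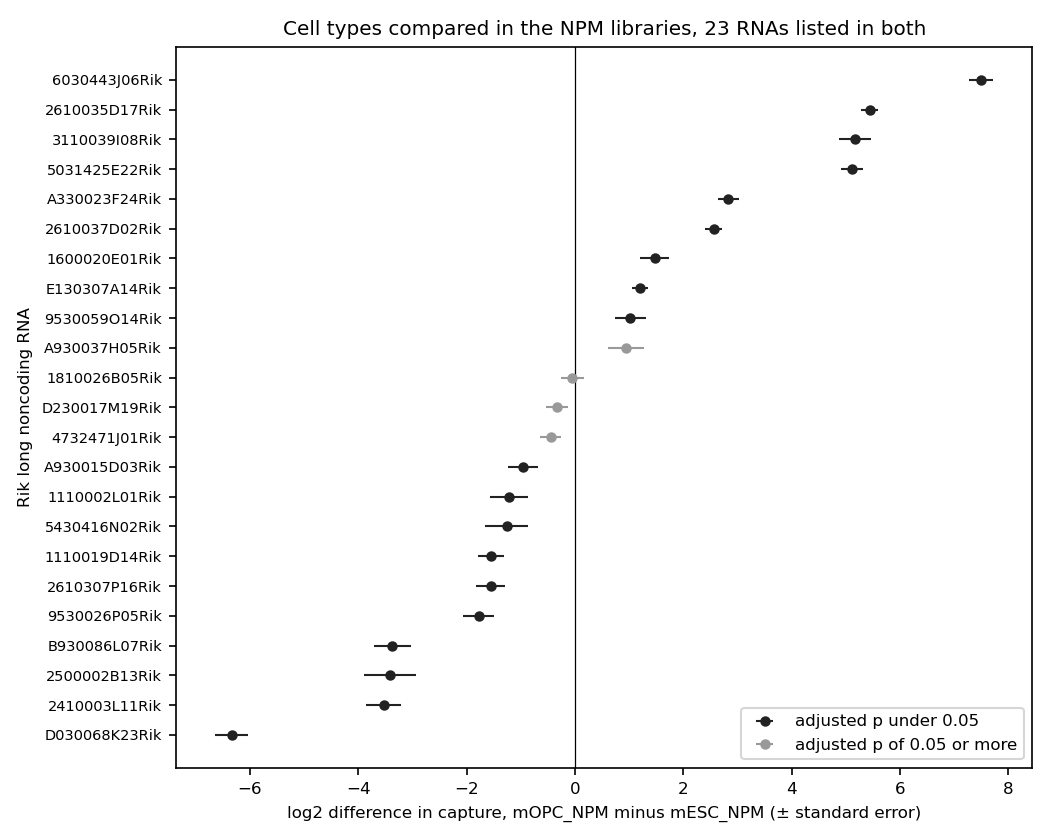
Log2 difference in capture between mOPC_NPM and mESC_NPM (x axis, ± SE; n = 2 libraries per group) for the 23 Rik RNAs listed in both, 1 per row, coloured by whether the adjusted p was under 0.05. 2610035D17Rik lies at 5.44 and 9530026P05Rik at -1.78, and the 4 RNAs that did not pass lie between -0.45 and 0.94. 6030443J06Rik, 3110039I08Rik, D030068K23Rik, B930086L07Rik, 2410003L11Rik and 2500002B13Rik entered the test through 1 group alone, so nothing is read from their colour.

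The most captured RNAs of mOPCs were also higher in mOPC_NPM. 2610035D17Rik had 65 and 79 interactions in mESC_NPM and 5723 and 5787 in mOPC_NPM, which was 5.44 ± 0.16 on the log2 scale (SE, 43.5-fold, limma adjusted p = 6.16e-06). 5031425E22Rik had 42 and 78 against 4039 and 3311, higher by 5.11 ± 0.20 (34.6-fold, limma adjusted p = 1.36e-05). The groups were apart for both RNAs. 6030443J06Rik (4 and 8 against 2132 and 1863) lay 7.50 ± 0.22 apart (181-fold) and 3110039I08Rik (9 and 7 against 567 and 532) 5.17 ± 0.30 (36.1-fold), but both reached 10 interactions in mOPC_NPM only, so they entered the test through that group alone and no p is given. The region of chromosome 5 again differed as a whole, with a median of 2.26 over 242 transcripts against 0.23 in the rest of that chromosome.

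A330023F24Rik rose to 297 and 280 interactions in mOPC_NPM from 17 and 28 in mESC_NPM (2.83 ± 0.19, limma adjusted p = 0.000137) and 2610037D02Rik to 600 and 450 from 42 and 54 (2.56 ± 0.16, limma adjusted p = 0.000113). The calls for 1600020E01Rik, E130307A14Rik and 9530059O14Rik were smaller, at 1.47 ± 0.27, 1.20 ± 0.14 and 1.02 ± 0.29. The remaining 4 higher calls, which also entered through mOPC_NPM alone, were of RNAs listed at 0 in both mESC_NPM libraries: 5330434G04Rik (277 and 254 in mOPC_NPM), A230001M10Rik (117 and 123), A330049N07Rik (108 and 90) and B230209E15Rik (71 and 80).

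Among the 13 lower calls, 7 were of RNAs that reached 10 interactions in mESC_NPM only, so their values are given with no p. D030068K23Rik had 154 and 257 interactions in mESC_NPM and 5 and 3 in mOPC_NPM, a difference of -6.34 ± 0.30 (80.8-fold). In mOPCs it was listed in the NPM libraries and not in the 1FA libraries. B930086L07Rik (35 and 74 against 9 and 8) had a difference of -3.37 ± 0.34, 2410003L11Rik (29 and 50 against 6 and 5) one of -3.53 ± 0.32 and 2500002B13Rik one of -3.41, and 4930467D21Rik, 4930461G14Rik and C330002G04Rik were listed at 0 in mOPC_NPM. The other 6 had reached it in both groups. 2610307P16Rik had 81 and 84 interactions against 63 and 41, a difference of -1.56 ± 0.26 (limma adjusted p = 0.00562). 9530026P05Rik, 1110019D14Rik, 5430416N02Rik, 1110002L01Rik and A930015D03Rik had differences of -1.78, -1.56, -1.26, -1.22 and -0.96, all of which passed the test (limma, adjusted p of 0.00454 to 0.0496).

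The 4 RNAs that did not pass the test were 4732471J01Rik (-0.45 ± 0.19, limma adjusted p = 0.112), D230017M19Rik (-0.33 ± 0.20, limma adjusted p = 0.217), 1810026B05Rik (-0.05 ± 0.21, limma adjusted p = 0.854) and A930037H05Rik (0.94 ± 0.33, limma adjusted p = 0.0635). Apart from A930037H05Rik, which is antisense to the ubiquitin ligase gene Rnf213, these also had the smallest differences in the 1FA libraries. With scaling by totals, 12 were higher and 15 lower, and the share of higher calls among all transcripts called moved from 59.2% to 45.3%, with a shift of the median by -0.37.

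Nearest coding genes were compared with the members. In the NPM libraries, 21 members had a nearest coding gene that was tested, and 12 of these pairs had differences of the same sign. In the 1FA libraries, whose counts chose the members, 13 of 19 did. Both counts include pairs that entered through 1 group alone. They also include 6030443J06Rik with Lhfpl3, B930086L07Rik with Fgfr2 and 1810026B05Rik with Chd2, which overlap on the same strand. The tags of these pairs cannot be fully separated. Kmt2e beside 5031425E22Rik was 3.38 ± 0.14 higher in mOPC_NPM (limma, adjusted p = 1.78e-05), and Arid2 beside 2610037D02Rik 1.80 ± 0.17, both in the direction of the RNA. Cd46 opposite A330023F24Rik was listed at 0 in both mESC_NPM libraries and had 52 and 37 interactions in mOPC_NPM. Slc39a11 beside 2610035D17Rik was lower (-0.62 ± 0.15, limma adjusted p = 0.0216), Zfhx3 beside D030068K23Rik differed by -0.13 ± 0.18 (limma, adjusted p = 0.555), and Sox4 beside 2610307P16Rik had 8 and 6 interactions in mESC_NPM and 113 and 55 in mOPC_NPM, through which alone it entered the test.

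With a higher formaldehyde concentration no member tested passed the unpaired test. The groups did not overlap for 5 of the 11 tested, beside 1761 of all 9962 transcripts. For comparisons with mESC_1FA, only members that had reached the minimum in mOPC_1FA were tested, since the others had been chosen on the very libraries compared. The mESC comparisons below share those 3 control libraries. With 2% FA, 0 of 11 such members passed the test (limma, beside 3 of 9962 transcripts or 0.0301%, with 0.0201% higher and 0.0100% lower). An unadjusted p under 0.05 was found for 3 of the 11, beside 1149 of the 9962. 2610035D17Rik had 306, 221 and 269 interactions in mESC_2FA, below all mESC_1FA libraries, and a difference of -0.80 ± 0.20 (limma, adjusted p = 0.184). Same-numbered libraries of the 2 groups deviated together in these same data and were taken as pairs on that basis, not from a label. With the replicate as a block 2 passed: 2610035D17Rik at -0.80 ± 0.10 (limma, adjusted p = 0.000468) and A330023F24Rik at 0.79 ± 0.22 (limma, adjusted p = 0.0452). No share over all transcripts is given for this fit, and its pairing was chosen from the data it tests. That count and its p-values are therefore only a description. The median over the 25 members with enough interactions was 0.04, and their range was -0.80 to 0.99.

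After 4 h of ActD, 9 of the 11 members passed the test and all 9 were lower, beside 60.8% of all transcripts (41.4% lower). Of these, 5 (2610037D02Rik, 1600020E01Rik, 9530059O14Rik, A330023F24Rik and 6030443J06Rik) reached 10 interactions in at least 2 libraries of mESC_1FA but not of mESC_ActD4, which list far fewer interactions, and entered the test through mESC_1FA alone. Of the 6 members that reached it in both groups 4 passed, beside 53.5% of such transcripts. Among those 5, 2610037D02Rik had 10 and 7 interactions in mESC_ActD4 (-2.21 ± 0.16 on the log2 scale) and 1600020E01Rik 10 and 8 (-1.51 ± 0.20). The Chaserr transcript 1810026B05Rik, with 12 and 12, had reached it in both groups and fell by 1.56 (-1.56 ± 0.27, limma adjusted p = 0.00178). 5031425E22Rik (25 and 10) was lower by 1.04, E130307A14Rik (47 and 27) by 0.57 and 4732471J01Rik (48 and 35) by 0.49, from differences of -1.04, -0.57 and -0.49. The calls for 9530059O14Rik, A330023F24Rik and 6030443J06Rik were of RNAs listed at 0 in both ActD libraries.

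2610035D17Rik and A930037H05Rik did not pass. 2610035D17Rik had 89 and 43 interactions in mESC_ActD4, a difference of -0.16 ± 0.26 after scaling (limma, adjusted p = 0.619), and A930037H05Rik had 41 and 15 (0.17 ± 0.24, limma adjusted p = 0.574). Among members chosen on mESC_1FA, for which values are given without a call, the differences ran from -4.35 for 2610307P16Rik (6 and 1 interactions) and -3.65 for 4930461G14Rik (7 and 2) through -0.94 for D030068K23Rik (151 and 87) to 0.56 for A930015D03Rik (20 and 20) and 0.79 for 2500002B13Rik (43 and 13). 4930467D21Rik and 1110019D14Rik were listed at 0. Over the 20 members listed in both groups the median was -1.09, beside -0.02 over all transcripts and -1.07 over the 69 other long noncoding RNAs with the same minimum that were listed in both. With the fitted values of those at 0, the medians were -1.42 over 25 members, -0.31 over all transcripts and -1.32 over 82 other long noncoding RNAs. The tags left on 5031425E22Rik lay mostly in exons, 17 of 25 and 7 of 10 (68.0% and 70.0%), against 25.3%, 19.8% and 24.3% in mESC_1FA, a description over few tags.

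Removing protein changed capture in both directions. In mESC_NPM against mESC_1FA, 7 of 11 passed the test, beside 49.5% of all transcripts. A330023F24Rik was higher by 1.56 ± 0.29 (limma, adjusted p = 0.00153) and 9530059O14Rik, with 29 and 27 interactions, by 0.79 ± 0.28 (limma, adjusted p = 0.0365). 2610035D17Rik fell by 1.03 (-1.03 ± 0.24, limma adjusted p = 0.00506), and 1600020E01Rik, 1810026B05Rik, 4732471J01Rik and 2610037D02Rik by 0.79 to 0.89, from differences of -0.79 to -0.89. With scaling by totals 3 were higher and 0 lower, as the median of all transcripts moved by 0.52 and the share of higher calls from 44.0% to 76.0%, so these directions hold relative to the other transcripts of the library.

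In mOPC_NPM against mOPC_1FA, 11 of the 16 members that had reached the minimum in mESC_1FA and were tested passed, beside 55.5% of all transcripts. 2610307P16Rik went from 4, 1 and 2 interactions to 63 and 41 (4.31 ± 0.46), and 9530026P05Rik from 0 in all 3 libraries to 16 and 15. Both reached 10 interactions in mOPC_NPM only, and 9 of the 13 members that reached it in both groups passed, beside 48.8% of such transcripts. 1110019D14Rik was higher by 0.84 ± 0.30 (limma, adjusted p = 0.0498). Another 8 RNAs were lower, led by 5031425E22Rik (-1.65 ± 0.20, limma adjusted p = 0.000438), 1600020E01Rik (-1.58 ± 0.17), A930037H05Rik (-1.29 ± 0.11), 1810026B05Rik (-1.17 ± 0.12) and 2610037D02Rik (-1.14 ± 0.19). 2610035D17Rik fell by 1.10 (-1.10 ± 0.24, limma adjusted p = 0.00676), 4732471J01Rik was at -0.83 ± 0.13 and E130307A14Rik at -0.60 ± 0.10. With scaling by totals 4 were higher and 4 lower, the median of all transcripts moved by 0.78 and the share of higher calls from 52.1% to 89.1%. Leaving out an mOPC_NPM replicate leaves 1 library in that group, whose spread is then taken from mOPC_1FA, so no calls are read from such fits.

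Distances were measured between the RNA tag and the DNA tag, not from the ends of the RNA's gene. "Distant" here means over 100 kb from the RNA tag on the same chromosome, or on another chromosome (trans). As member genes spanned up to 426 kb, a distant contact of a long gene can lie within that gene. Pooled over the 30 RNAs, distant contacts made up 55.6% ± 1.37 (SD, n = 3) in mESC_1FA, 50.4% ± 1.83 (n = 3) in mESC_2FA, 22.1% ± 0.636 (n = 2) in mESC_ActD4 and 70.3% ± 2.36 (n = 3) in mOPC_1FA. They fell to 2.81% ± 1.80 (n = 2) in mESC_NPM, all of them trans, and 9.53% ± 1.10 (n = 2) in mOPC_NPM, where 94.8% and 88.8% of contacts lay within 1 kb. With each RNA and bin pair counted once per library, the distant share was 70.7% in mESC_1FA and 6.40% in mESC_NPM, and 91.3% in mOPC_1FA and 60.8% in mOPC_NPM. Contacts 1 to 10 Mb away took 7.14% in mESC_1FA and 27.6% in mOPC_1FA, and contacts beyond 10 Mb 0% and 11.3%. These far contacts in mOPC_1FA were mostly those of a few RNAs. There 2610035D17Rik met 829 bins over 1 Mb away on its chromosome, 5031425E22Rik 385 and 6030443J06Rik 186, and no other member more than 39. The first 2 of these made up 74.8% of the interactions pooled. Trans contacts took 0.400% in mESC_1FA and 0.989% in mOPC_1FA, or 0.432% and 0.410% without 2610035D17Rik. The 101 other long noncoding RNAs with the same minimum had 0.332% ± 0.0958 (SD, n = 3) and 13.7% ± 0.399 without Malat1, and 51.4% and 79.8% with it. The 13.7% came mostly from Neat1, and without Malat1 and Neat1 the values were 0.289% ± 0.107 and 0.365% ± 0.0372. Only 10.7% ± 0.569 (SD, n = 3) of the members' RNA tags in mESC_1FA and 6.05% ± 0.381 in mOPC_1FA were exonic, so these tags were largely intronic. For the other long noncoding RNAs without Malat1 the exonic shares were 22% and 30.3%. That list still held Neat1, whose part in these 2 shares was not tested, so the gap to the members is only a description.

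**Figure D3:**
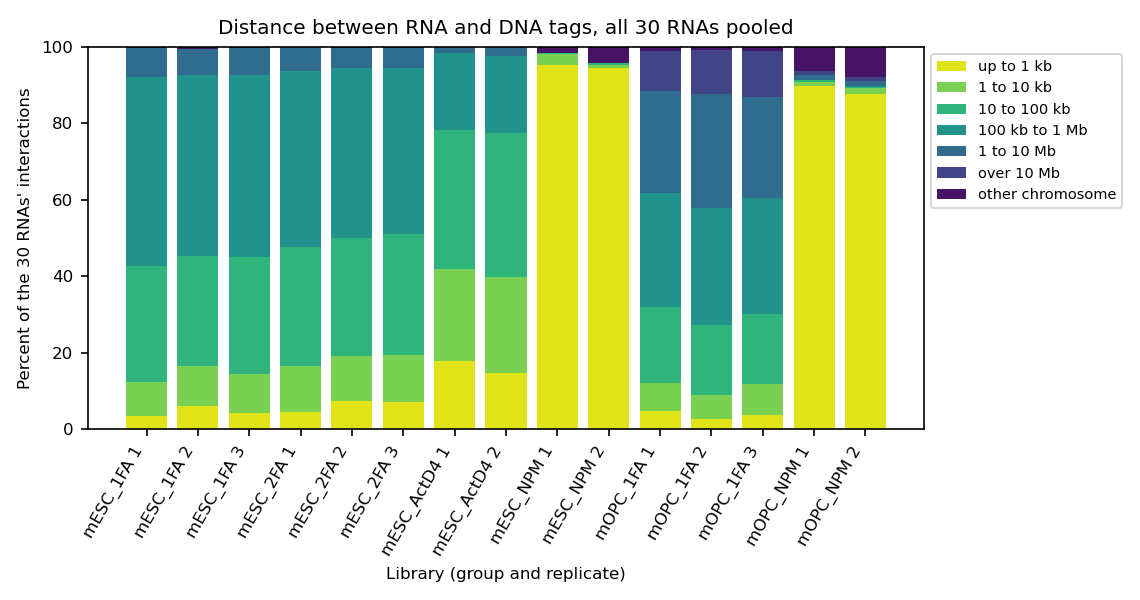
Share of the 30 RNAs' interactions in each distance class (y axis, percent; stacked bars, 1 per library, 15 libraries in 6 groups). Contacts within 1 kb fill 87.7 to 95.2% of each NPM bar, and contacts of over 10 Mb (10.5 to 11.9%) are seen in the mOPC_1FA bars but are 0 in mESC_1FA. In mOPC_1FA, 2610035D17Rik and 5031425E22Rik made up 74.8% of the interactions pooled.

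The distant share of single RNAs was compared between mOPC_1FA and mESC_1FA as log2 of distant over other interactions, for the 13 members with at least 20 interactions in every library. The rule used counts but no distance. Of these, 8 passed the test, 5 higher and 3 lower in mOPC_1FA, beside a background of 60.7% (11.2% higher and 49.5% lower) and a median of -0.60 over the 5020 transcripts tested. For 5031425E22Rik the share was 42.1%, 40.1% and 33.3% in mESC_1FA and 70.3%, 74.8% and 70.9% in mOPC_1FA. It was higher in every mOPC library, by 2.04 ± 0.20 (SE, limma adjusted p = 0.000259). The other transcripts of its region shifted the same way, with a median of 0.56 in the first 45 Mb of chromosome 5 against -0.76 in the rest of that chromosome, and the part of this in the result was not tested.

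A330023F24Rik went from a mean of 18.2% to 42.6% (1.68 ± 0.32, limma adjusted p = 0.00405), 9530059O14Rik from 27.5% to 46.8% (1.22 ± 0.32, limma adjusted p = 0.0144), 2610037D02Rik from 45.5% to 59.8% (0.83 ± 0.15, limma adjusted p = 0.00340) and A930037H05Rik from 45.1% to 58.1% (0.75 ± 0.22, limma adjusted p = 0.0218). These RNAs also had more interactions in mOPC_1FA. As the authors' test is made per RNA and bin, more tags can bring more far bins onto the list, and this was not tested. Lower shares were found for D230017M19Rik (34.8% to 15.2%, -1.56 ± 0.35, limma adjusted p = 0.00749), the Chaserr transcript 1810026B05Rik (21.4% to 10.1%, -1.28 ± 0.21, limma adjusted p = 0.00229) and E130307A14Rik (59.0% to 50.4%, -0.50 ± 0.17, limma adjusted p = 0.0364). The mean for 2610035D17Rik was 72.7% in mESC_1FA and 76.6% in mOPC_1FA (0.29 ± 0.21, limma adjusted p = 0.267), and 1600020E01Rik, 4732471J01Rik, 5430416N02Rik and 1110002L01Rik did not pass either. With 10 kb as the limit in place of 100 kb, 1 member was called. With 1 Mb as the limit the sign turned for 7 of the 13, among them D230017M19Rik (3.10, from 7 contacts so far away), 1810026B05Rik (0.31), E130307A14Rik (1.97), 9530059O14Rik (-1.39) and A930037H05Rik (-0.63). For 3 of the 7, 9530059O14Rik and A930037H05Rik included, no contact so far away was listed in any library, so their values come from the 0.5 added to each count, and with each RNA and bin pair counted once for E130307A14Rik (0.17).

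**Figure D4:**
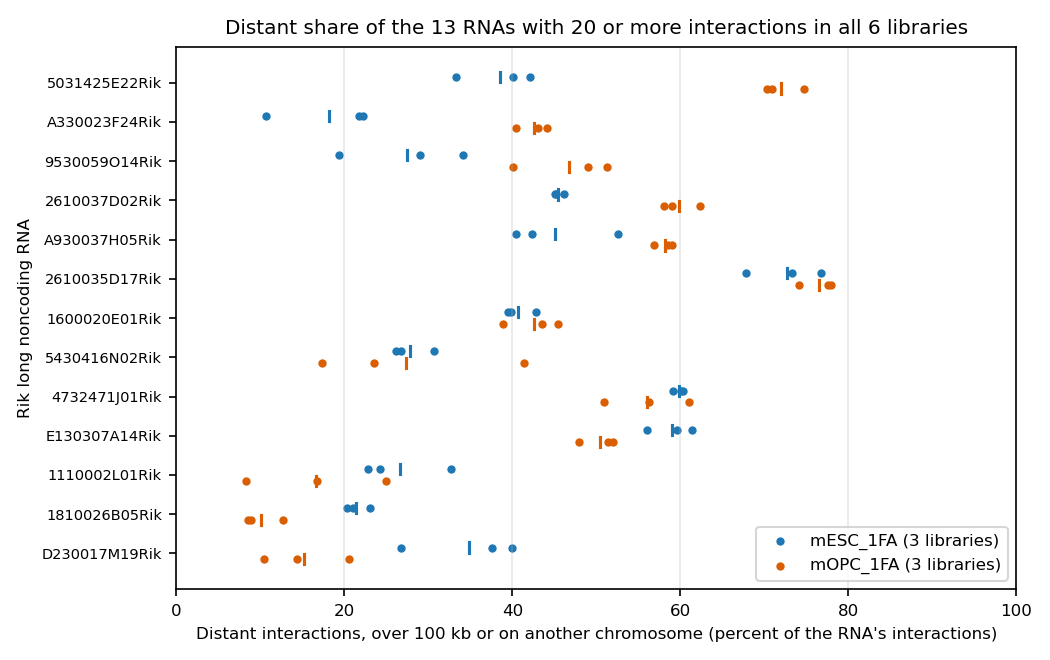
Distant share (x axis, percent of each RNA's interactions over 100 kb away or on another chromosome) of the 13 Rik RNAs with at least 20 interactions in all 6 of the 1FA libraries, 1 point per library. The mOPC_1FA points of 5031425E22Rik (70.3 to 74.8%) lie above its mESC_1FA points (33.3 to 42.1%), while those of 1810026B05Rik lie below.

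With ActD and with protein removal the distant share, with its limit at 100 kb, was lower for nearly every RNA, these included. Under ActD all 5 members with enough interactions were lower, beside 95.6% of all transcripts tested, with 0.363% higher. From mESC_1FA to mESC_ActD4 the mean share of D030068K23Rik went from 77% to 42.9% (-2.15 ± 0.20, limma adjusted p = 7.41e-05). That of 2610035D17Rik went from 72.7% to 38.9% (-2.06 ± 0.24, limma adjusted p = 0.000189) and that of 4732471J01Rik from 59.9% to 38.0%. E130307A14Rik went from 59.0% to 7.96% and A930015D03Rik from 38.4% to 0%. With a minimum of 50 interactions 1 was called, as fewer members could be tested. In mESC_NPM 20 of 21 members were lower, beside 97.6% of all transcripts lower and 97.9% called, the other being 1810026B05Rik (-2.34 ± 1.04, limma adjusted p = 0.0583). In mOPC_NPM it was 19 of 19, beside 95.3% lower and 95.4% called. At a minimum of 50 interactions 6 members could be tested in mESC_NPM, and with each RNA and bin pair counted once 3 in mOPC_NPM, and these were all lower. With 1 Mb as the limit the sign turned for 2 of 5 members under ActD, 12 of 21 in mESC_NPM and 5 of 19 in mOPC_NPM, and 1, 9 and 3 were called higher. Of these calls 1, 7 and 3 were of RNAs with no contact over 1 Mb away in any library compared. The other 2, 1110002L01Rik (5 and 6 such contacts in mESC_NPM) and C330002G04Rik (2 and 8), were of RNAs with none in mESC_1FA. These contacts were all trans, in 1 bin of chromosome 17 with ribosomal RNA sequence that is described below. That bin was common in mESC_NPM, with a median share of 5.14% over the transcripts of other chromosomes with at least 300 interactions. Among the 19 members in mOPC_NPM, 2610035D17Rik had the largest distant share, 14.3% and 17.1%, followed by 5031425E22Rik with 9.71% and 10.2%. Most of the share of 2610035D17Rik there was trans, 13.5% and 15.6% of its interactions, against 1.69 to 2.29% in mOPC_1FA.

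The far contacts of 2610035D17Rik were spread along chromosome 11. Contacts over 1 Mb from the RNA tag made up 13%, 12.1% and 13% in mESC_1FA and 46.8%, 49.7% and 50.2% in mOPC_1FA, with no overlap. None were listed in mESC_2FA or mESC_ActD4. The median distance on the chromosome was 289 kb in mESC_1FA and 989 kb in mOPC_1FA. The RNA met 87 bins of 25 kb in mESC_1FA and 962 in mOPC_1FA, and the shared 87 were 100% of the former and 9.04% of the latter, numbers that grow with the count of interactions. Of the 829 mOPC_1FA bins beyond 1 Mb, 818 were met in all 3 libraries, a recurrence favoured by selecting bins on the pooled libraries. Within mOPC_1FA, 66.9% of the contacts on chromosome 11 lay between 110 and 115 Mb, 10.2% between 115 and 120 Mb and 8.99% between 105 and 110 Mb, against 99.4% between 110 and 115 Mb in mESC_1FA.

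Slc39a11, the 405-kb neighbour, was the most contacted other gene, with 146, 93 and 75 contacts (19.3%) in mESC_1FA and 1176, 1418 and 1041 (9.91%) in mOPC_1FA. The cell adhesion gene Sdk2, 575 kb away, had 63 and 1470 in all. The 25 kb to each side of and across Sox9, a transcription factor gene of glial and cartilage development 256 kb away, had 25, 13 and 14 contacts in mESC_1FA and 139, 127 and 106 in mOPC_1FA, which were 3.20% and 1.01% of the RNA's interactions. The number was higher and the share lower in mOPC_1FA, and neither was tested.

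2610035D17Rik was also the member with most trans contacts in mOPCs. In mOPC_1FA, 139, 165 and 154 of its contacts (1.25% in all) fell in the first 45 Mb of chromosome 5, and in mOPC_NPM 636 and 759 (12.1%). By this share it ranked 15 of 2871 and 8 of 1629 transcripts of other chromosomes with at least 300 interactions. Malat1 had 49.9 to 50.1% of its trans contacts in that region in mOPC_NPM. None of the contacts of 2610035D17Rik fell there in mESC libraries.

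**Figure D5:**
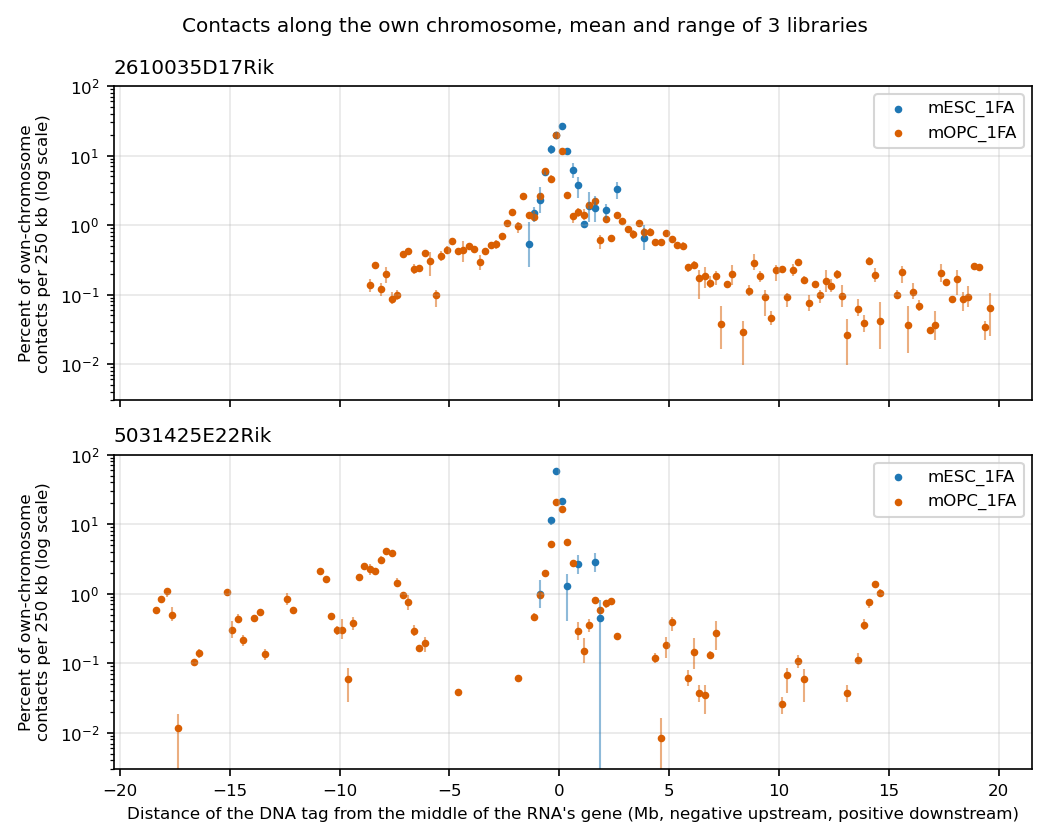
Contacts of 2610035D17Rik (top) and 5031425E22Rik (bottom) along their own chromosome in bins of 250 kb, as a percent of contacts on that chromosome (y axis, log scale) against distance from the middle of the gene in Mb (negative upstream, 20 Mb to each side shown). Points are means and lines the range of 3 libraries (a line reaching the axis marks a library at 0) for mESC_1FA and mOPC_1FA; the mOPC_1FA profiles run far beyond the mESC_1FA ones, and that of 5031425E22Rik has a second group of contacts upstream.

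The contacts of 5031425E22Rik in mOPC_1FA fell into separate blocks of chromosome 5. Of its contacts on that chromosome 58.2% lay between 20 and 25 Mb, 0.459% between 25 and 30 Mb and 28.3% between 30 and 35 Mb, and none lay outside 5 to 45 Mb, whereas all 751 in mESC_1FA lay between 20 and 25 Mb. It met 28 bins in mESC_1FA and 469 in mOPC_1FA, of which 463 recurred in all 3 libraries. All 28 were shared, which was 5.97% of the mOPC_1FA bins. The upstream side took 56.4% of contacts and the downstream side 21.9% in mOPC_1FA, the rest lying on the gene. The splicing kinase gene Srpk2 had 77, 40 and 42 contacts in mESC_1FA and 794, 744 and 884 in mOPC_1FA, Kmt2e 41, 22 and 39 against 632, 573 and 680, and the 529.5-kb gene Lhfpl3 17, 7 and 11 against 1218, 1150 and 1506. Lhfpl3 thus took 4.66% of the contacts in mESC_1FA and 11.4% in mOPC_1FA. 6030443J06Rik placed 82.1% of its mOPC_1FA contacts on the chromosome between 20 and 25 Mb and 6.26% between 30 and 35 Mb. Lhfpl3, on whose strand it lies, took 46.0%, and the extracellular matrix gene Reln 516 contacts in all.

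D030068K23Rik reached farthest among the mESC RNAs. In mESC_1FA, 23%, 20.2% and 20.6% of its contacts were more than 1 Mb away, 144 of its 145 bins were met in all 3 libraries, and Zfhx3, a gene of 1019 kb, took 468, 475 and 544 contacts (29.8%). In mESC_2FA the far share was 19.3%, 18% and 18%, and in mESC_ActD4 5.96% and 9.20%. 2610307P16Rik stayed closer, with 5.72% beyond 1 Mb in mESC_1FA and 18% of contacts on Cdkal1, a gene for a tRNA-modifying enzyme.

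Contacts with the neighbouring gene, and bins met in both cell types, are given for 5 further RNAs. 2610037D02Rik had 38, 40 and 37 contacts on Arid2 in mESC_1FA and 120, 121 and 154 in mOPC_1FA, which were 13.1% and 11.5% of its interactions. It met 38 and 108 bins, 36 of them shared (94.7% and 33.3%). E130307A14Rik met 49 and 56 bins with 41 in common (83.7% and 73.2%), A930037H05Rik gave 39.7% and 32.6% of its contacts to Rnf213, and 1810026B05Rik gave 36.1% and 42.4% to Chd2. 4732471J01Rik met 53 bins in mESC_1FA and 29 in mOPC_1FA, and 28 were shared (52.8% and 96.6%).

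5430416N02Rik, an 8.69-kb lincRNA gene on chromosome 5 outside the region above and 4608 bp from Sec31a, a gene for a vesicle coat protein, is described for its trans contacts. In mESC_1FA 13, 21 and 15 of its contacts, 15.0% of 327, fell in a single bin at chr17:39825001-39850000, which holds ribosomal RNA sequence. By this share it ranked 8 of 4075 transcripts of other chromosomes with at least 300 interactions, whose median share was 0%. In mOPC_1FA the counts were 8, 11 and 9 (24.3% of 115) and in mESC_2FA 4, 9 and 14, while none were listed in mESC_ActD4, mESC_NPM or mOPC_NPM. Most contacts came from 1 place on the RNA, as 60 of the 77 in 1FA libraries had RNA positions within 5 bases of the one printed in the fourth sequence above. The 77 had 76 different DNA positions. Contacts with that bin were not particular to it. In mESC_1FA it also held every listed trans contact of D030068K23Rik (16), 2610307P16Rik (9) and 1110019D14Rik (7, or 1.93%, rank 30 of 4075). In mESC_NPM the bin was common: the median share was 5.14% over the 655 such transcripts, and D030068K23Rik (25 contacts, 6.08%) ranked 144. The listed trans contacts of 2610035D17Rik (2 and 6), 5031425E22Rik (1 and 8), 1810026B05Rik (8, or 9.64% of 83), 1110002L01Rik (11, or 12.9% of 85), 2500002B13Rik (8, or 13.1% of 61) and C330002G04Rik (10 of 91 interactions) were all in that bin there.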

How the data were processed

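RADICL-seq was run in 2 mouse cell lines (32 GEO samples, an RNA and a DNA entry per library or run, 15 libraries). Per the labels and the study's methods, the authors mapped tags to mm10 with BWA (0.7.15-r1140) after CASAVA (1.8), both from the submitters' processing notes, annotated them with GENCODE and kept pairs of an RNA and a 25-kb DNA bin that passed a binomial test. A pair listed for replicates 1 and 2 had the same adjusted p-value in both deposited files in 100% of cases in every group, from which the test was taken to pool the replicates. The deposited files list tag positions in each significant interaction, with an adjusted p-value of at most 0.0500 given by the authors, which was used only to check the filter. Distinct interactions were counted here from the deposited positions, so these are counts made from a thresholded list and carry no sequencing depth.

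Symbols came from a later GENCODE release by Ensembl identifier (99.8% matched). Capture was log2 interactions per 1000000 listed, with trimmed mean of M-values factors (30% and 5% trimmed) and a prior count of 0.5, for transcripts with at least 10 interactions in as many libraries as the smaller group and 15 in all, tested with limma 3.58.1 (trend) in R 4.3.3 and Benjamini-Hochberg adjustment over all transcripts. The distant share was log2 of distant over other interactions (0.5 added to each, at least 20 interactions in every library), tested likewise. Python 3.11.15, pandas 2.3.3, numpy 2.4.6, pysam 0.24.0 and matplotlib 3.10.9 were used, and scripts were tested on simulated data. The members and lists were chosen with earlier results of these data known. Named RNAs were the 10 most captured per cell type, up to 4 called per direction and comparison with groups apart, the 5 with the largest trans and over-1-Mb shares, those at the threshold and those holding miRNAs, and others were named after their values were seen. Same-numbered mESC_1FA and mESC_2FA libraries deviated together (correlations of 0.34, 0.17 and 0.31 over transcripts), so they were taken as pairs on that basis. Alternatives were total scaling, a prior of 2, no filter, voom weights, 1 fit over all libraries, pairs counted once, other distance limits and minimums, thinning, the replicate block and leaving out each library. Replicates were cell batches of differing passage of 1 line, per the study's methods, so p-values measure only the spread between such batches. As the listing test was taken to pool the replicates, a pair was listed or left out for a whole group. Counts of a group's libraries are thus not independent, and their spread may be understated. This holds also for groups said not to overlap and for RNAs at 0 in all libraries.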

Additional observations from a re-analysis of the deposited data

Results flagged for a closer look

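For 4 RNAs every NPM library lay above every 1FA library in one of the 2 cell types and below in the other after scaling for library composition; the difference between the cell types was not tested. The negative value of each was set against the 1FA libraries on whose counts the RNA had been chosen, which favours a lower value, and is a description with no call. For 2610307P16Rik the log2 difference of NPM against 1FA was -0.42 in mESCs and 4.31 in mOPCs. For A330023F24Rik it was 1.56 in mESCs and -0.38 in mOPCs. 6030443J06Rik had 0.59 and -0.44, and 9530059O14Rik 0.79 and -0.54. For none of the 4 was the sign opposite under scaling by totals: per 1000000 listed interactions, 2610307P16Rik had a mean of 149.8 in mESC_1FA and 162 in mESC_NPM (1.09 and 42.0 in mOPCs) and 9530059O14Rik 71.9 in mOPC_1FA and 86.0 in mOPC_NPM (22.1 and 55.5 in mESCs). A330023F24Rik had 169 to 184 in mOPC_1FA and 233 and 235 in mOPC_NPM, and 6030443J06Rik 1251 to 1280 and 1565 to 1675, higher with protein removed as in mESCs. The counts behind the mESC value of 6030443J06Rik were 4 and 8 interactions in NPM and 11, 13 and 16 in 1FA.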

How the results depend on the processing

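Of 810 capture values of named RNAs under the alternatives, 705 kept their direction and their side of the threshold, 63 no longer passed, 38 moved and 4 turned sign; of 296 distant-share values of named RNAs the numbers were 271 that kept, 14 that no longer passed, 2 that newly passed and 9 that turned. For capture, the 26 members called between the NPM groups became 5 with pairs counted once, as most members then fell below the minimum of 10 and could not be tested. The 0 for 2% FA became 3 without a filter on low counts and 2 with the replicate block. With pairs counted once it became 6, at SEs of 0.01 to 0.05. Bins were listed by a test taken to pool the replicates, so these SEs do not measure independent libraries and nothing is read from the 6. The 7 of mESC_NPM became 3 with scaling by totals. For the distant share, the 8 of mOPC_1FA against mESC_1FA became 1 with a 10-kb limit, the 5 of ActD 1 and the 20 of mESC_NPM 6 at a minimum of 50, and the 19 of mOPC_NPM 3 with pairs counted once. In these ActD and NPM cases every member that could still be tested was called. With the replicate block the other counts of calls were 26, 9, 6 and 10, against 26, 9, 7 and 11 without it, for capture (mOPC_NPM against mESC_NPM, ActD, mESC_NPM, mOPC_NPM) and 7, 5, 19 and 19, against 8, 5, 20 and 19, for the distant share; outside the FA comparison numbers were only shared, with correlations of -0.12 to 0.16.

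Leaving out a library, which in groups of 2 leaves 1 library whose spread is assumed to be that of the other group, gave 25 to 26 members over 2-fold in the 1FA comparison, 19 to 23 calls between the NPM groups, 0 for 2% FA, 8 to 10 for ActD, 6 to 9 for mESC_NPM and 7 to 10 for mOPC_NPM; for the distant share 6 to 8, 5 to 10, 19 to 23 and 19. The pooled distant percentages ran from 54.9 to 56.1, 49.4 to 51.2, 21.6 to 22.5, 1.53 to 4.08, 69 to 71.4 and 8.75 to 10.3 (mESC_1FA, mESC_2FA, mESC_ActD4, mESC_NPM, mOPC_1FA, mOPC_NPM). With pairs counted once they were 70.7, 66.5, 27.6, 6.40, 91.3 and 60.8, and without the most captured member 54.1 in mESC_1FA, 19.4 in mESC_ActD4, 66.4 in mOPC_1FA and 5.41 in mOPC_NPM.

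Values that turned sign for capture were, with pairs counted once, 4732471J01Rik under ActD (0.25) and in mOPC_NPM (0.16) and 2610037D02Rik in mESC_NPM (0.33), and with scaling by totals E130307A14Rik in mOPC_NPM (0.19). For the distant share in mOPC_1FA against mESC_1FA they were 9530059O14Rik (-1.39), D230017M19Rik (3.10), 1810026B05Rik (0.31) and E130307A14Rik (1.97) with a 1-Mb limit, E130307A14Rik with pairs counted once (0.17) and 2610035D17Rik with a 10-kb limit (-0.22). With a 1-Mb limit A930015D03Rik (2.32) and E130307A14Rik (0.10) turned under ActD and 5031425E22Rik (0.89) in mESC_NPM. Over all members tested at that limit, 7 of 13, 2 of 5, 12 of 21 and 5 of 19 turned (mOPC_1FA against mESC_1FA, ActD, mESC_NPM, mOPC_NPM), and 3, 1, 7 and 5 of these had no contact that far, so their sign comes from the 0.5 added. For the others the cause was not tested. Without trans contacts in the ribosomal RNA bin or in the first 45 Mb of chromosome 5, both chosen after seeing the data, each count of calls stayed within 1 of its value. The files hold interactions past a threshold, so rare and far contacts of weakly captured RNAs are the least well measured, most of all in mESC_ActD4 and mESC_NPM.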

Other observations

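The bases near the listed RNA positions were not evenly used. In the 1FA libraries, over 20939 distinct plus-strand positions of the 30 RNAs, T made up 9.89% of the bases 13 positions 3′ of the listed position, and 0.831% over the 361 plus-strand positions with at least 5 interactions. On the minus strand the lowest share of T was 11 positions 3′ of it, with 2.32% over 2927 positions with at least 5 interactions. At the listed position itself T made up 29.1% over the plus-strand positions.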
